A study of Sus scrofa with 20 samples.

Results

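FOXO1 and FOXO3 encode forkhead transcription factors of the FoxO class, SESN1 encodes sestrin 1, and FBXO32 encodes the ubiquitin ligase subunit atrogin-1. The 4 genes were followed in pig kidney through every probe set that the platform annotation names for one of them alone. This gave 8 probe sets, 2 for each gene, of the 23999 probe sets tested, and 4 of the 6765 genes measured. All 8 matched a pig gene in RefSeq by gene identifier.

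Kidneys of 20 pigs (Sus scrofa), 1 array per animal, came from a randomized experiment with 10 animals in each group. Control animals had a burr hole, catheters and anaesthesia. Animals with neurologic death (ND) had the same procedures, and a balloon catheter was then inflated under the dura until neurologic death was established. All animals of both groups were ventilated for 6 h and received boluses of 0.9% saline at 2 cc/kg when needed to hold the mean arterial pressure over 35 mmHg, so neither group is an unoperated kidney. Strain, age and sex are not given in the sources used here. The p-values measure the spread between these animals.

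FoxO proteins switch on genes of fasting metabolism, stress defence, autophagy and protein breakdown when insulin signalling is low. Insulin and growth factors act through PI3K and the kinases AKT and SGK, which phosphorylate FoxO proteins and move them out of the nucleus. Much of this control therefore acts on the protein, which an RNA measurement does not see. Sestrins are induced by p53 and FoxO proteins, activate AMPK and restrain mTORC1. Atrogin-1 is best known from wasting skeletal muscle, where FoxO proteins drive it together with the ligase MuRF1 (TRIM63).

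The deposited values were log2 signals, and every value and difference below is on that scale unless a fold is named. Array medians ran from 5.09 to 5.35. The background was set at 2.79, the highest value that 23 control probe sets without a pig target reached on any array. The kidney label fitted the tubule markers, with FBP1, a gluconeogenic enzyme of the proximal tubule, highest at a mean signal of 14.8. Of the 10 tubule markers measured, 9 were above background on at least 1 array, and SCNN1A was under it on all. Array medians were 0.09 higher in ND than in control (permutation p = 0.00660). The 3' minus 5' signal, a measure of RNA integrity, averaged 4.01 in ND and 4.14 in control for actin (permutation p = 0.681). For GAPDH it averaged 1.67 and 1.85 (permutation p = 0.0858). The part of these measures in the results was not tested.

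Animal numbers were spread unevenly between the groups. Numbers up to 100 belonged to 7 ND animals and 1 control, Control_02. Numbers from Control_184 upward, here called high-numbered, belonged to 3 ND animals and 5 controls, and the other 4 controls ran from Control_134 to Control_157. The labels do not say what the number stands for. Results are therefore also given with a term for animal number (up to 100 against above) and among the high-numbered animals.

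Of the 8 member probe sets, 2 passed an adjusted p of 0.05 in limma, and both were lower in ND. They were 1 probe set of FOXO1 and 1 of SESN1. Over all probe sets 3.33% passed in this direction, 3.8% passed in the other and 7.13% in either. No probe set of FOXO3 or FBXO32 passed in limma (0 of 4 at an unadjusted p of 0.05). With each gene taken at its brightest probe set, 2 of the 4 genes fell, against 4.55% of all genes that fell and 9.99% that passed in either direction. The 4 genes were chosen with earlier results of these data known, so these counts are a description and not a test.

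**Figure D1:**
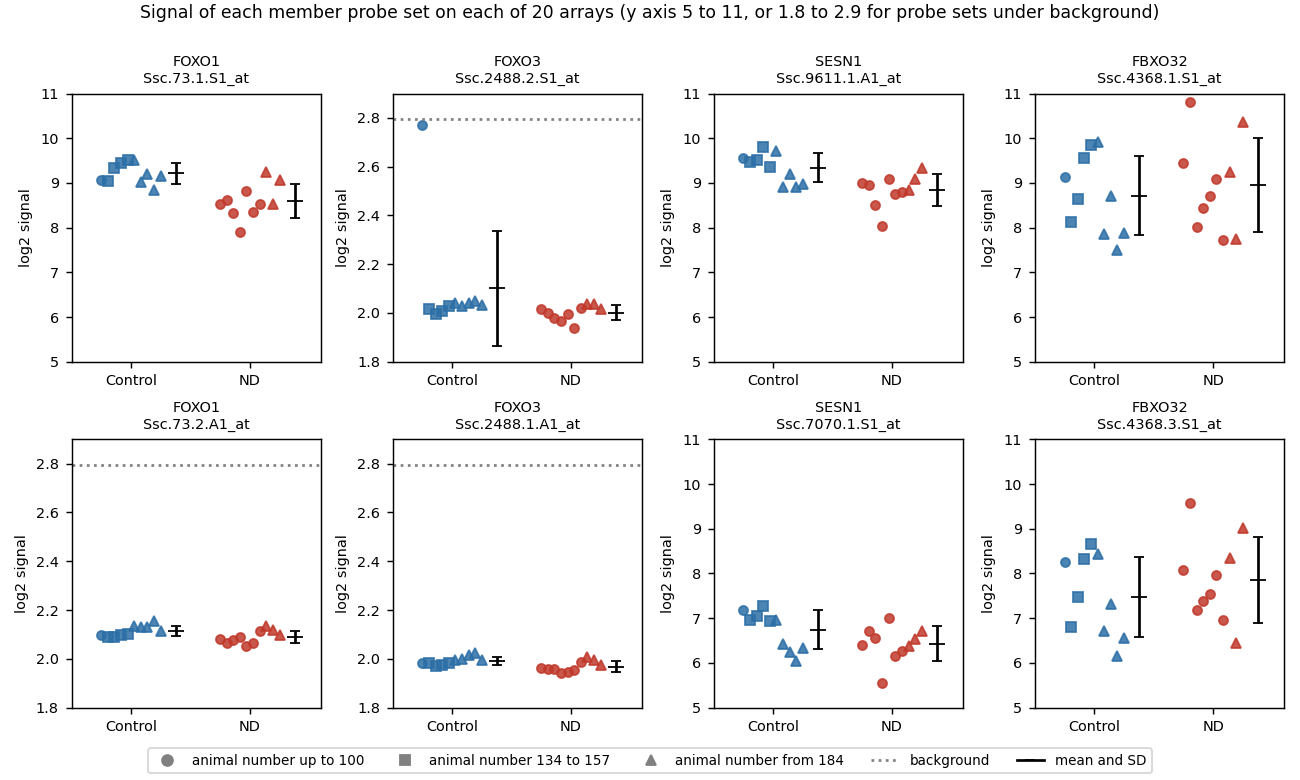
Log2 signal of the 8 member probe sets (y axis, 5 to 11, or 1.8 to 2.9 where a probe set lies under background) in 10 control and 10 ND animals (x axis). The top row holds the brighter probe set of each gene. Points are animals, marker shapes are ranges of animal number, bars are the mean and SD, and the dotted line is the background of 2.79. FOXO1 and the brighter SESN1 probe set sit lower in ND with overlapping groups, both FOXO3 probe sets lie under the line, and FBXO32 spreads widely in both groups.

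FOXO1, the main FoxO gene of hepatic and renal glucose production, fell in ND. Its brighter probe set read from 8.84 to 9.50 in control kidneys, with a median of 9.18. In ND kidneys it read from 7.90 to 9.25, with a median of 8.54. In 8 of 10 ND kidneys FOXO1 lay below the lowest control, and 4 controls lay above the highest ND animal, so the groups overlapped only through ND_193 and ND_198. These were 2 of the 3 high-numbered ND animals.

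FOXO1 averaged 8.59 ± 0.38 in ND and 9.21 ± 0.23 in control (SD, n = 10 each). The difference was -0.62 ± 0.14 (SE), with a 95% interval from -0.91 to -0.33, or 1.53-fold lower (limma adjusted p = 0.00979, permutation p = 0.00038). By p it ranked 616 of 23999 probe sets. Leaving out each animal in turn kept the call, with differences from -0.69 to -0.54. In bulk kidney, fewer cells that express FOXO1 and less FOXO1 RNA per cell cannot be told apart.

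The FOXO1 difference was smaller once animal number was considered. ND animals numbered up to 100 averaged 8.44 ± 0.29 (SD, n = 7), and high-numbered ND animals averaged 8.95 ± 0.37 (SD, n = 3). High-numbered controls averaged 9.14 ± 0.25 (SD, n = 5). With the term for animal number the FOXO1 difference was -0.38 and no longer passed (limma adjusted p = 0.246). Among high-numbered animals it was -0.19, with a 95% interval from -0.67 to 0.28 (limma adjusted p = 0.668). Of all probe sets, 2.1% passed with the term (1.36% lower) and 0.238% among these 8 animals (0.158% lower).

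The second FOXO1 probe set gave no reading of the gene. It ran from 2.05 to 2.15 over the 20 arrays, all under background, and no fold is given for it.

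FOXO3, which overlaps with FOXO1 in its target genes, was not measurable with these probe sets. The dimmer one ran from 1.94 to 2.02, under background on all 20 arrays. The brighter one was also under background throughout. It ran from 1.94 to 2.05 on 19 arrays and reached 2.77 in Control_02. Neither gives a direction for FOXO3, and neither shows that the gene is silent in pig kidney. The limma adjusted p was 0.344 for the brighter probe set and 0.233 for the dimmer one. On the RefSeq annotation of Sscrofa11.1, FOXO3 and SESN1 are close neighbours on the same chromosome, with 1 protein-coding gene, ARMC2, between them.

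SESN1, the sestrin classically induced by p53, was lower in ND on its brighter probe set. It read from 8.91 to 9.81 in control kidneys, with a median of 9.41. In ND kidneys it read from 8.04 to 9.33, with a median of 8.90. All 10 ND animals lay below the control mean, 5 of them lay below the lowest control, and 6 controls lay above the highest ND animal.

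SESN1 averaged 8.84 ± 0.36 in ND and 9.34 ± 0.33 in control (SD, n = 10 each). The difference was -0.50 ± 0.15 (SE), with a 95% interval from -0.82 to -0.19, or 1.42-fold lower (limma adjusted p = 0.0480, permutation p = 0.0034). This call stood close to the threshold. It was lost in 16 of the 20 fits that left out 1 animal, with adjusted p from 0.0507 to 0.0850. It was kept only without ND_198, Control_187, Control_197 or Control_199.

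SESN1 means also differed by animal number within the controls, a difference that was not tested. Control_134 to Control_157 averaged 9.54 ± 0.19 (SD, n = 4), and the high-numbered controls averaged 9.15 ± 0.34 (SD, n = 5). High-numbered ND animals averaged 9.09 ± 0.24 (SD, n = 3). With the number term the SESN1 difference was -0.40 (limma adjusted p = 0.362). Among high-numbered animals it was -0.058, with a 95% interval from -0.56 to 0.45 (limma adjusted p = 0.884).

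The dimmer SESN1 probe set did not pass. This probe set read from 6.04 to 7.27 in control, with a median of 6.94, and from 5.56 to 7.01 in ND, with a median of 6.46. The groups overlapped over most of their range. Its difference was -0.31 ± 0.18 (SE), with a 95% interval from -0.69 to 0.07 (limma adjusted p = 0.239, permutation p = 0.112). Among high-numbered animals the sign turned, to 0.14. The dimmer set followed the brighter one over animals, with r = 0.90 in control and 0.81 in ND (n = 10 each, permutation test, adjusted p = 0.00435 and 0.0227). In ND this rested on ND_198 and ND_47, since r was 0.44 without them.

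FBXO32 did not pass on either probe set, and its spread between animals was wide in both groups. The brighter one read from 7.49 to 9.91 in control kidneys, with a median of 8.68. In ND kidneys it read from 7.71 to 10.8, with a median of 8.90. The groups overlapped almost fully. ND_22, at 10.8, and ND_198, at 10.4, lay above every control, and no ND animal lay below the lowest control.

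FBXO32 averaged 8.96 ± 1.06 in ND and 8.72 ± 0.88 in control (SD, n = 10 each). The difference was 0.24 ± 0.42 (SE), with a 95% interval from -0.64 to 1.12 (limma adjusted p = 0.701, permutation p = 0.586). The second probe set gave 0.38 ± 0.40 (SE), with a 95% interval from -0.47 to 1.22 (limma adjusted p = 0.516). The first of these intervals reaches past the FOXO1 difference of -0.62, so the arrays do not show that FBXO32 held its level. The 2 probe sets gave the animals nearly the same order, with r = 0.98 in each group (n = 10 each).

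The highest ND kidney carried 8.52-fold more FBXO32 signal than the lowest ND kidney, and among controls the range was 5.36-fold. The within-group SD of FBXO32 was 0.970, above that of 98.7% of the 2186 probe sets whose mean signal lay within 0.5. The median SD of these was 0.297. The second FBXO32 probe set stood above 96.6% of its 2244 neighbours in level. FOXO1, at 56.0%, and SESN1, at 64.0% and 55.9%, were near the middle of theirs.

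**Figure D2:**
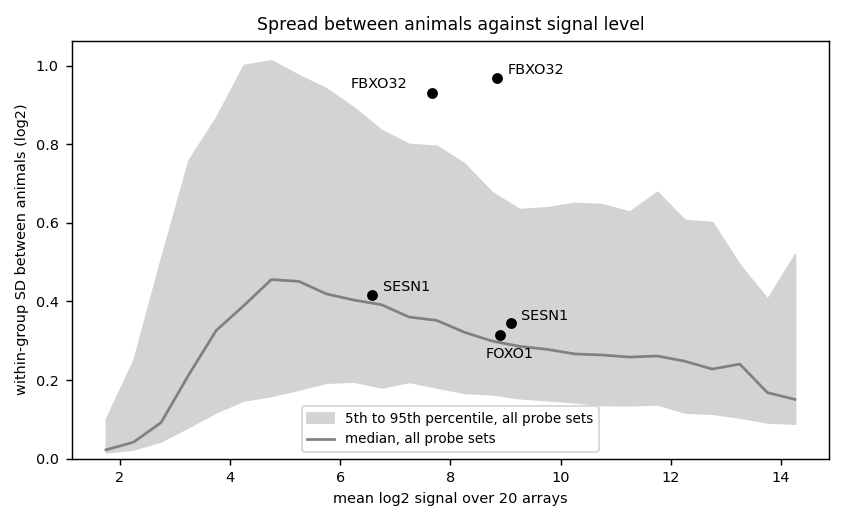
Within-group SD between animals (y axis, log2) against mean log2 signal over 20 arrays (x axis) for the 5 member probe sets above background. The grey band spans the 5th to 95th percentile of all probe sets and the line is their median. Both FBXO32 probe sets lie above the band, while FOXO1 and SESN1 lie near the line.

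Skeletal muscle, where FBXO32 is best known, left no clear trace in the samples. Of 14 measured muscle markers, 9 were under background on all arrays, among them the troponins TNNC2, TNNI2, TNNT1 and TNNT3 and the slow myosin MYH7. The highest mean signal of the list was 2.97, for TTN. The mean of the list ran from 2.22 to 2.48 in ND and from 2.27 to 2.44 in control, and no muscle marker passed in limma (0 higher and 3 lower at an unadjusted p of 0.05). With arrays shifted to one median 8 of the 14 were called lower, as were 32.2% of all probe sets. With 9 of the 14 under background on all arrays, these calls give no direction for muscle RNA.

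**Figure D3:**
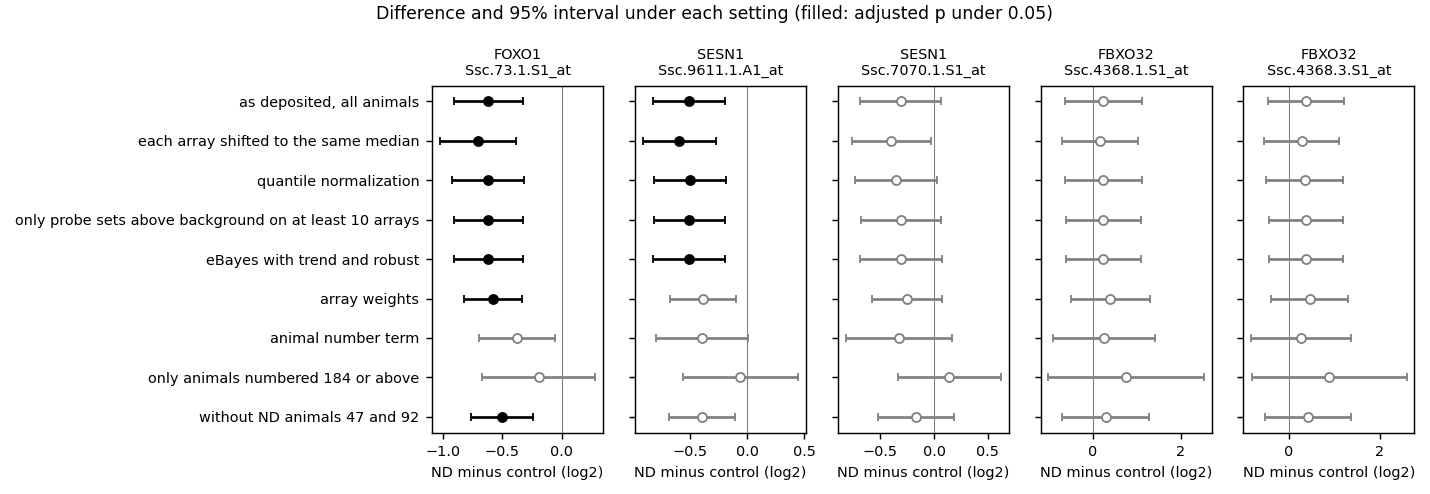
ND minus control in log2 (x axis, own range for each panel) with its 95% interval under each analysis setting (rows) for the 5 member probe sets above background. Filled points have an adjusted p under 0.05. FOXO1 keeps its call except with the animal number term and among high-numbered animals, the brighter SESN1 probe set loses it under 4 settings, and the FBXO32 intervals include 0 under every setting.

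FOXO1 and SESN1 varied together between animals of the same group. Within ND, r was 0.75 (n = 10, permutation p = 0.0156, adjusted p = 0.0227), with Spearman rho at 0.66 (adjusted p = 0.0641). Within control, r was 0.68 (permutation p = 0.0363, adjusted p = 0.0454), with rho at 0.61 (adjusted p = 0.0832). In all, 10 such relations were computed, 6 between genes and 4 between probe sets of 1 gene, and p-values were adjusted over them. Without the 2 animals farthest from the median of FOXO1, r was 0.88 in ND and 0.67 in control (adjusted p = 0.00976 and 0.114). Among the 7 ND animals numbered up to 100, a subgroup added after seeing the data, the relation had r = 0.96 and rho = 0.89 (exact permutation p = 0.00159, not adjusted). In the same 7 animals FBXO32 had r = 0.29 with FOXO1 and 0.43 with SESN1 (exact permutation p = 0.522 and 0.312, not adjusted). Each of the other number ranges holds fewer than 6 animals of a group and was not tested.

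FBXO32 followed both genes in control kidneys. Within control, r was 0.88 with FOXO1 and 0.80 with SESN1 (n = 10, permutation test, adjusted p = 0.00435 and 0.0151). Neither passed without the 2 animals farthest from the median of FOXO1 or SESN1, at r = 0.78 and 0.65 (adjusted p = 0.0602 and 0.119). Within ND the values were 0.42 and 0.41, and neither passed (adjusted p = 0.227 for each). The difference in r between groups was not tested. FOXO1, SESN1 and FBXO32 all averaged higher in Control_134 to Control_157 (n = 4) than in the high-numbered controls (n = 5). FBXO32 averaged 9.05 ± 0.80 and 8.37 ± 0.97 (SD), SESN1 9.54 and 9.15, and FOXO1 9.33 and 9.14. FOXO1 and FBXO32 ranked Control_134 to Control_157 in the same order. The part of animal number in r within control, also for FOXO1 with SESN1, was not tested. ND_47 had the lowest FOXO1 (7.90) and SESN1 (8.04) of all animals, and Control_197 the lowest FOXO1 (8.84) and FBXO32 (7.49) of the controls.

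**Figure D4:**
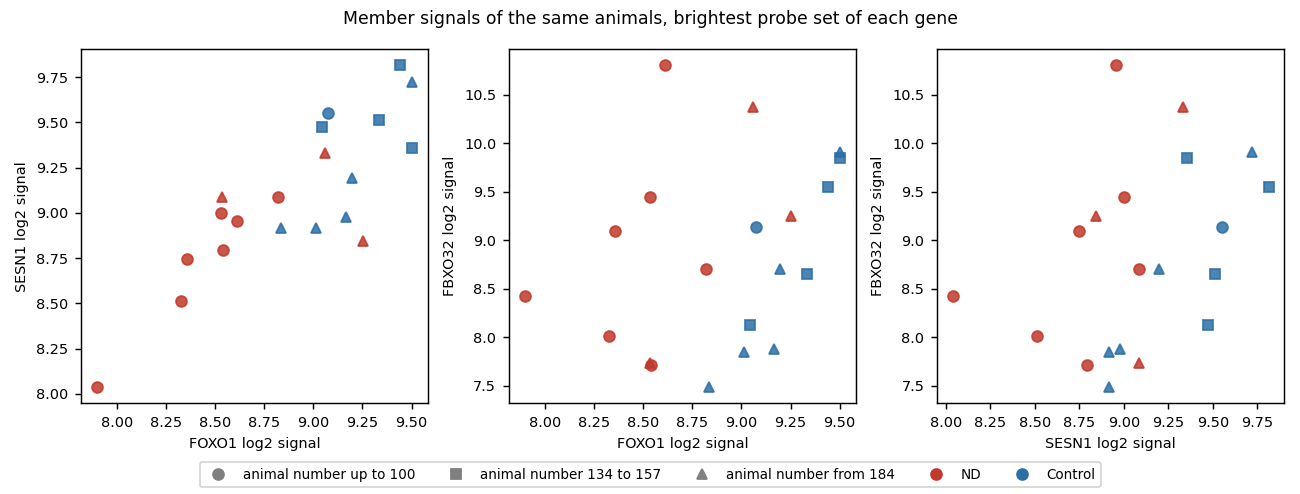
Log2 signals of FOXO1, SESN1 and FBXO32 against each other, brightest probe set of each gene, with 1 point per animal. Red is ND, blue is control, and shapes are ranges of animal number. Control points form a rising band in all 3 panels, while ND points form one for FOXO1 with SESN1 and scatter for FBXO32.

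Some other genes followed the members across animals after the group means were removed. These correlations, over 20 arrays and 5640 genes above background, are a description, since the points share arrays and array-wide scaling. The 5 genes most like FOXO1 were LPIN2 (0.85), a phosphatidate phosphatase, BCKDHA (0.85), a subunit of the branched-chain keto acid dehydrogenase, the homeobox gene CUX1 (0.83), the cathepsin CTSV (0.82) and pyruvate carboxylase, PC (0.82). The 5 most like SESN1 were RAP1GAP (0.82), AFF1 (0.78), CTDSP2 (0.78), MCCC2 (0.77), a subunit of methylcrotonyl-CoA carboxylase, and the retinal dehydrogenase ALDH1A1 (0.76). The 5 most like FBXO32 were ENPP1 (0.79), FAM151B (0.74), the methyl-CpG binding gene MBD1 (0.74), the histone demethylase KDM3A (0.73) and TMEM55B (0.73). Of these 15 genes, CTSV passed between the groups (-0.42, limma adjusted p = 0.0442).

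The close relatives of the members were not measured here. FOXO4, FOXO6, SESN2, SESN3 and TRIM63 had no probe set annotated to them alone. The same held for IRS2, PIK3R1, DDIT4, MTOR, BCL6 and BNIP3.

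Around the members, 10 lists of pathway genes held 140 measured genes outside the 4, each counted once. Of these, 6 rose and 18 fell, with a median difference of -0.03. Among all genes, 5.44% rose and 4.55% fell, with a median of -0.02. The lists, like the members, were chosen with earlier results of these data known, so their counts are a description. With the animal number term 13 of the 140 passed, beside 2.1% of all probe sets. Among high-numbered animals 2 did, both of the glucocorticoid list, beside 0.238% of all probe sets. With each array shifted to one median 42 passed, while 36.6% of all probe sets passed and 32.2% were called lower. In that scaling the rises of SMAD4, ITCH and TSC2 no longer passed (limma adjusted p = 0.202, 0.0672 and 0.0719). The shares given for these alternative fits are over probe sets, and shares over genes were not computed for them. In the fit to all animals as deposited, 7.13% of probe sets and 9.99% of genes passed.

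Insulin and PI3K/AKT signalling, which acts on FoxO proteins, showed 1 called gene of 13 measured. SGK1, a kinase that phosphorylates FoxO proteins and is itself induced by glucocorticoids, fell by 1.46 ± 0.25 (SE; limma adjusted p = 0.00174). It read from 13.1 to 14.2 in control and from 10.8 to 12.8 in ND, with no overlap, as for 40 of all 6765 genes. Neither AKT gene passed, with differences of 0.04 for AKT1 and 0.04 for AKT2. INSR, the insulin receptor, stood at 0.60 (adjusted p = 0.139) and IGF1R at 0.14 (adjusted p = 0.729). The second IGF1R probe set stood at -0.10 (adjusted p = 0.664), and the other INSR probe sets were under background on all arrays. IRS1 was under background on all arrays. The phosphatase genes PPP2CA, at -0.18, and INPPL1, at 0.27, did not pass (adjusted p = 0.0810 and 0.0968), though PPP2CA did without ND_86 or without Control_199. PPP2CA also passed with the number term, at -0.31 (adjusted p = 0.0171), where it was the 1 call of the list. The median of the list was 0.04. With arrays shifted to one median 3 of its genes fell, beside 32.2% of all probe sets. SGK1 stood at -1.17 with the number term (adjusted p = 0.0570).

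Among 17 cofactors and modifiers of FoxO proteins, 1 fell and 1 rose, and the median was 0.03. SIRT3, a mitochondrial deacetylase, fell by 0.64 ± 0.14 (SE; limma adjusted p = 0.00852), and stood at -0.88 with the number term (adjusted p = 0.00589). It was below the control mean in 10 of 10 ND animals. SMAD4, the shared SMAD of TGF-beta signalling, rose by 0.21 (adjusted p = 0.0486). That call was lost in 15 of 20 fits that left out 1 animal, and kept without ND_01, ND_193, Control_184, Control_187 or Control_199. SMAD4 had an adjusted p of 0.106 with the number term. YWHAZ, a 14-3-3 protein that binds phosphorylated FoxO, stood at 0.61 (adjusted p = 0.0505), and its second probe set at 0.50 (adjusted p = 0.0919). CDK2 stood at 0.32 (adjusted p = 0.0510). YWHAZ passed without ND_01, ND_193, ND_194, ND_198 or Control_02, and CDK2 without ND_22, ND_100, Control_157 or Control_199.

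FoxO targets of growth and metabolism included 6 genes of 13 that fell and none that rose in limma, with 8 lower and 1 higher at an unadjusted p of 0.05. The list median was -0.41. PDK4, the kinase that shuts off pyruvate dehydrogenase, fell by 2.38 ± 0.38 (SE; limma adjusted p = 0.000869), and its second probe set stood at -2.80 (adjusted p = 0.00169). CPT1A, which admits fatty acids to mitochondria, fell by 0.88 (adjusted p = 0.00697). The transcription factor KLF15 fell by 1.44 (adjusted p = 0.00854), and TXNIP, a brake on glucose uptake, fell by 0.87 (adjusted p = 0.0220). PCK1, the gluconeogenic enzyme PEPCK, fell by 0.66 (adjusted p = 0.0222). IGFBP1, a secreted binder of insulin-like growth factors, stood at 4.38 ± 1.25 in control and 2.84 ± 0.13 in ND (SD, n = 10 each; adjusted p = 0.0195), where 5 of 10 arrays were above background.

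PPARGC1A, the coactivator PGC-1 alpha, stood at -0.41 (adjusted p = 0.0916) and passed without ND_193. PNPLA2, the adipose triglyceride lipase, stood at -0.41 (adjusted p = 0.115) and passed without Control_199. With the number term 3 genes of this list kept the call: PDK4 at -2.81 (limma adjusted p = 0.00331), CPT1A at -0.95 (adjusted p = 0.0476) and TXNIP at -1.10 (adjusted p = 0.0473). PCK1 stood at -0.50 and KLF15 at -1.06 in that fit, with adjusted p of 0.277 and 0.175. IGFBP1 stood at -1.17 (adjusted p = 0.251). Among high-numbered animals PDK4 stood at -2.98 (adjusted p = 0.0526). PDK4 and KLF15 are also glucocorticoid targets and stand in both lists. Whether the other genes of this list respond to glucocorticoids was not tested.

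Of 12 FoxO targets in stress defence, 1 fell, and the list median was -0.20. HMOX1, heme oxygenase 1, fell by 1.09 ± 0.26 (SE; limma adjusted p = 0.0155). SOD2, the mitochondrial superoxide dismutase, stood at 0.28 (adjusted p = 0.0972), and catalase, CAT, at -0.14 (adjusted p = 0.368). These antioxidant enzymes are textbook FoxO targets, and neither passed. GADD45A, a DNA damage gene, stood at -0.91 (adjusted p = 0.123) and passed without Control_199. DDB1 stood at -0.34 (adjusted p = 0.0683) and passed without ND_22. SELENOP stood at -0.30 (adjusted p = 0.0803) and passed without ND_193, ND_194 or Control_157. With arrays shifted to one median 5 of the list fell, beside 32.2% of all probe sets. HMOX1 stood at -1.19 with the number term (adjusted p = 0.0796).

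Of 14 FoxO targets in cell cycle and apoptosis, none passed in limma, and 2 were higher and 2 lower at an unadjusted p of 0.05. With arrays shifted to one median 3 fell, beside 32.2% of all probe sets. CDKN1A, the cell cycle inhibitor p21, stood at -0.21 (adjusted p = 0.585) and the cyclin CCND2 at 0.91 (adjusted p = 0.154). TRADD stood at 0.23 (adjusted p = 0.0656) and passed without ND_198. BCL2L11, CDKN2B and FASLG were under background on all arrays.

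Autophagy genes showed 1 call among 17. GABARAPL1, an ATG8 family gene that FoxO proteins induce, fell by 0.57 ± 0.15 (SE; limma adjusted p = 0.0266). In 10 of 10 ND animals it was below the control mean. PIK3C3, the lipid kinase that starts autophagosomes, stood at -0.39 (adjusted p = 0.0563) and passed without ND_22 or without Control_199. The cargo receptor SQSTM1 stood at 0.37 (adjusted p = 0.170). The list median was -0.06, and GABARAPL1 stood at -0.52 with the number term (adjusted p = 0.206).

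Of 11 genes of ubiquitin ligation and protein breakdown linked to atrophy besides FBXO32, ITCH rose and FBXO21 fell, and the list median was -0.03. The list also holds UBE2B, UBB, PSMD11 and PSMA1, which are not ubiquitin ligases. ITCH rose by 0.27 ± 0.07 (SE; limma adjusted p = 0.0232). FBXO21, another F-box gene of the atrophy programme, fell by 0.52 ± 0.15 (SE; limma adjusted p = 0.0401). Other FBXO21 probe sets gave -0.61 (adjusted p = 0.0171), -0.69 (adjusted p = 0.0498) and -0.37 (adjusted p = 0.188), and a further one was under background. The FBXO21 call was lost in 13 of 20 fits that left out 1 animal and kept without ND_22, ND_86, ND_193, Control_184, Control_187, Control_190 or Control_199. STUB1 stood at 0.09 and CUL1 at 0.12, and neither passed. With the number term neither ITCH (adjusted p = 0.156) nor FBXO21 (adjusted p = 0.132) passed.

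Downstream of the sestrins, 3 of 16 measured genes of the AMPK and mTORC1 machinery rose and 1 fell, with a median of -0.04. NPRL2, a subunit of the GATOR1 complex that restrains mTORC1, rose by 0.61 ± 0.13 (SE; limma adjusted p = 0.00568), and stood at 0.74 with the number term (adjusted p = 0.0171). PRKAB2, a beta subunit of AMPK, rose by 0.78 ± 0.21 (SE; adjusted p = 0.0271), and this was lost without ND_86 or without Control_155. TSC2, a brake on mTORC1, rose by 0.28 (adjusted p = 0.0421). RRAGA, a Rag GTPase that brings mTORC1 to the lysosome, fell by 0.31 ± 0.08 (SE; adjusted p = 0.0182), and stood at -0.42 with the number term (adjusted p = 0.0220).

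With the number term neither PRKAB2 (limma adjusted p = 0.234) nor TSC2 (adjusted p = 0.246) passed. The TSC2 call was lost in 13 of 20 fits that left out 1 animal, and kept without ND_31, ND_193, ND_198, Control_134, Control_155, Control_190 or Control_199. RHEB, the GTPase that activates mTORC1, stood at -0.27 (limma adjusted p = 0.101) and passed without ND_31 or without Control_199. DDIT4L was under background in all controls and above it in 5 of 10 ND animals. Its mean was 2.92 in ND and 2.43 in control, and its ND median of 2.68 was under background, so no fold is given. DDIT4L did not pass (limma adjusted p = 0.114).

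Of 16 p53 targets, a class to which SESN1 belongs, BAX rose and none fell (2 higher and 1 lower at an unadjusted p of 0.05), and the list median was 0.04. BAX, which opens the mitochondrial outer membrane in apoptosis, rose by 0.59 ± 0.15 (SE; limma adjusted p = 0.0250). The BAX call was lost without ND_92 (adjusted p = 0.0501) and with the number term, where the difference was 0.28 (adjusted p = 0.501). PLK2 stood at 0.60 (adjusted p = 0.0888) and passed without ND_100.

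The glucocorticoid list, included because glucocorticoids raise FOXO1, FBXO32 and several FoxO targets in other tissues, had 9 of 17 genes that fell and none that rose in limma (0 rose and 12 fell at an unadjusted p of 0.05). Its median was -1.44. FKBP5, the co-chaperone of the glucocorticoid receptor, fell by 3.32 (limma adjusted p = 7.2e-12). TSC22D3, known as GILZ, fell by 2.26, the clock gene PER1 fell by 2.56 and KLF9 fell by 2.51, with no overlap between groups for any of these 4. Of all 6765 genes, 40 had no overlap. The second probe sets of FKBP5 and TSC22D3 stood at -2.99 and -0.32 (limma adjusted p = 6.7e-08 and 0.0349). Those of PER1 and KLF9 were under background on all arrays. MAOA stood at -0.52 (adjusted p = 0.0535) and passed without ND_31, ND_193 or ND_198, and DUSP1 stood at -0.58 (adjusted p = 0.110). With the number term 7 genes of the list fell. Among high-numbered animals FKBP5 and TSC22D3 passed (limma adjusted p = 0.00256 and 0.0259). FBXO32 did not pass, at 0.24 over all animals and 0.75 among high-numbered animals (limma adjusted p = 0.701 and 0.656). In the same fits FOXO1 stood at -0.62 and -0.19 (limma adjusted p = 0.00979 and 0.668). The part of glucocorticoids in these differences was not tested.

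**Figure D5:**
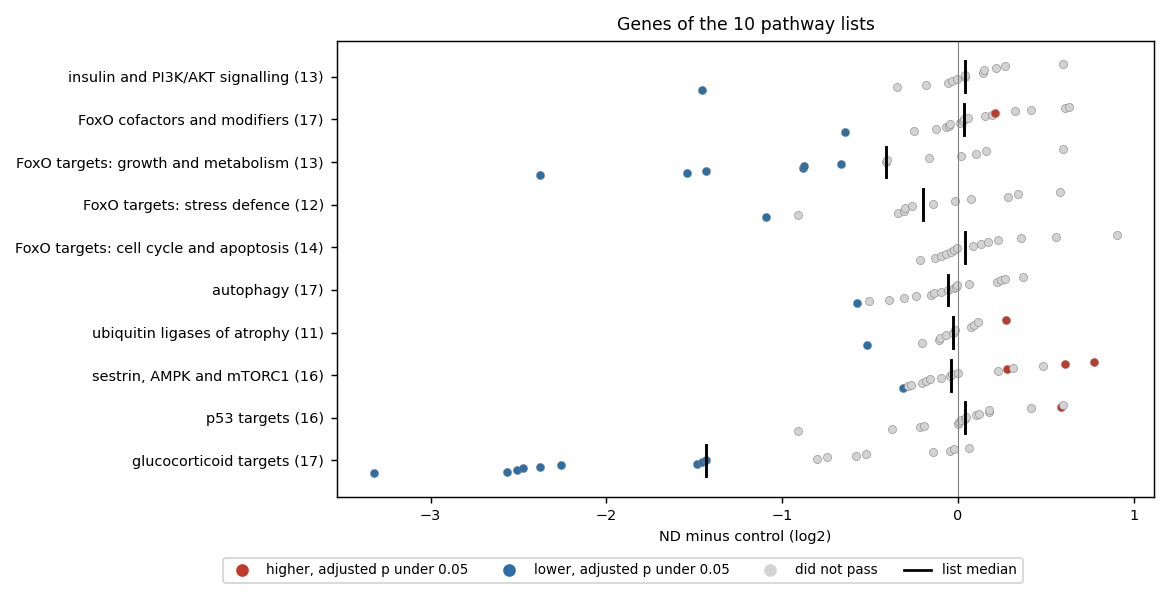
ND minus control in log2 (x axis) for each measured gene of 10 pathway lists (rows, number of genes in brackets), at the brightest probe set of each gene. Red and blue points passed an adjusted p of 0.05 in limma, grey points did not, and bars are list medians. The glucocorticoid list (median -1.44) and the FoxO targets of growth and metabolism (median -0.41) lie to the left of 0, and the other 8 medians lie between -0.20 and 0.04.

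Marker genes of the cell types that kidney tissue can hold are given as counts, beside the 9.99% of all genes that passed (5.44% higher and 4.55% lower). Of 10 tubule markers, HNF4A fell and none rose (5 lower and 0 higher at an unadjusted p of 0.05), and SCNN1A was under background on all arrays. The mean of the tubule list ran from 9.50 to 10.6 in ND and from 10.3 to 10.7 in control. Of 11 leukocyte markers 4 rose and 1 fell, with list means from 3.44 to 4.58 in ND and from 3.37 to 3.99 in control, and ITGAM and S100A8 were under background on all arrays. Of 11 endothelial markers 1 rose, with list means from 5.74 to 7.23 in ND and from 5.97 to 6.32 in control, and KDR was under background. Of 10 fibroblast and smooth muscle markers 1 rose, with list means from 6.94 to 8.67 in ND and from 6.74 to 7.87 in control. Of 5 adipose markers FABP4 fell, and ADIPOQ and LIPE were under background. Of 6 adrenal markers, 4 were under background, and none of the 6 adrenal or 2 podocyte markers passed in limma (1 adrenal and 0 podocyte markers at an unadjusted p of 0.05). With the number term no tubule, leukocyte, endothelial or fibroblast marker passed in limma (3, 3, 3 and 2 at an unadjusted p of 0.05), and FABP4 still fell. Among high-numbered animals no marker of these lists or FABP4 passed (4, 1, 3 and 2, and 1 adipose marker, at an unadjusted p of 0.05). The part of these cell types in the fall of FOXO1 and SESN1 was not tested.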

How the data were processed

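RNA was extracted with TRIzol and labelled with biotin from 250 ng of total RNA, per the labels' protocols. The deposited table holds log2 signals, a scale read from the values (0.88 to 16.2), and the authors' summarization and normalization are not given in the sources used here. The labels describe 2 kidney specimens per animal and there is 1 array per animal. After 124 control probe sets were left out, 23999 were tested, of which 10069 had 1 gene symbol, 198 several and 13732 none.

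Groups were compared with limma 3.58.1 (R 4.3.3; lmFit, eBayes), with Benjamini-Hochberg adjustment over all 23999 and a threshold of 0.05. The fit was tested on simulated data. Permutation tests were two-sided with 100000 resamples (scipy 1.17.1, numpy 2.4.6), and exact for up to 8 values. Lists used the brightest probe set per gene. Named genes were all members, up to 6 passing and 2 non-passing genes per list by p, a fixed set of FoxO pathway genes, and the 5 genes most like each member. The members and lists were chosen with earlier results of these data known. FOXO3, under background, was left out of the correlations, and the correlations between probe sets of 1 gene and among ND animals up to 100 were added after seeing the data. With arrays alone, precision is limited by their number. Alternatives covered array scaling, a filter on dim probe sets, variance model, array weights, animal number and left-out animals.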

Additional observations from a re-analysis of the deposited data

Results flagged for a closer look

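Among 116 groups of 10 arrays screened for the named probe sets, 10 had an end value whose gap to its nearest neighbour exceeded Dixon's 95% critical value relative to the group's range. Chance flags about 1 in 20 groups. The brighter FOXO3 probe set read 2.77 in Control_02, with the next control at 2.05, and both values are under background.

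Control_199 stood apart in 4 genes of the glucocorticoid list. Its SGK1 was highest among controls at 14.2 (next 13.6). Its KLF15 was lowest at 8.08 (next 9.70), its PER1 lowest at 9.94 (next 10.4) and its KLF9 lowest at 12.2 (next 13.2).

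ND_47 was lowest in its group for CAT at 14.4 (next 15.1), GABARAPL1 at 10.8 (next 11.8) and ITCH at 9.43 (next 9.76). It also had the lowest array weight, 0.256. Control_157 was lowest among controls for SELENOP at 14.7 (next 15.0), and Control_155 for SOD2 at 11.998 (next 12.5).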

How the results depend on the processing

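The FOXO1 difference kept its direction and its call in 26 of 28 alternative fits. It lost the call with the animal number term (-0.38, adjusted p = 0.246) and among high-numbered animals (-0.19, adjusted p = 0.668). The brighter SESN1 probe set kept its direction in all 28 and lost the call with array weights (-0.38), with the number term (-0.40), among high-numbered animals (-0.058), without ND_47 and ND_92 (-0.39) and in 16 of 20 fits without 1 animal. Over all 20 its differences ran from -0.56 to -0.41. The dimmer SESN1 probe set reversed to 0.14 among high-numbered animals. FBXO32 kept its direction and stayed short of the threshold in all 28. The probe sets under background gave no value with the dim filter. With arrays shifted to one median, the dimmer FOXO1 (-0.11) and dimmer FOXO3 (-0.11) probe sets passed, and the dimmer FOXO1 probe set was 0.0014 with quantile normalization, the opposite sign. These are shifts of signal under background.

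The number of probe sets called was 1712, against 8789 with arrays shifted to one median (1061 higher and 7728 lower, against 913 and 799), 505 with the number term, 57 among high-numbered animals and 619 at an adjusted p under 0.01. The pathway genes called were 24, against 42, 13 and 2 under the first 3 of these. For correlations, the FOXO1 with SESN1 relation no longer passed by rank in ND (0.66) or control (0.61), and in control not without 2 animals (0.67) or with shifted arrays (0.62). Without 2 animals, FOXO1 with FBXO32 (0.78) and SESN1 with FBXO32 (0.65) in control and the SESN1 probe sets in ND (0.44) no longer passed. The cause of these changes was not tested. No paired analysis was possible because the groups share no animal number.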

Other observations

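The gene most opposed to each member across animals, after the group means were removed, was chosen after its values were seen and lies outside the rule for named genes. THUMPD3 was most opposed to FOXO1 (r = -0.88), TMX1 to SESN1 (-0.82) and HSPB11 to FBXO32 (-0.83), over 20 arrays and 5640 genes. None of these 3 genes passed between ND and control in limma, with differences of 0.43 for THUMPD3, -0.01 for TMX1 and -0.10 for HSPB11.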
